A study of Homo sapiens with 16 samples.

Results

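Sorted progenitors and sorted neurons of brain organoids were compared at day 120, the latest stage of the series, through the open chromatin listed in each. The members are 4 of the 16 libraries, chosen by their labels: 2 progenitor and 2 neuron libraries of that day. All were made by ATAC-seq, in which the transposase Tn5 inserts sequencing adapters into accessible DNA. Here the isolated nuclei received Tn5 for 30 minutes. The starting cells were H9 (labelled WT), an established line of human embryonic stem cells, grown into organoids in which dorsal telencephalon, the part of the embryonic brain that gives rise to the cerebral cortex, was enriched. Both populations carry the same 2 reporters. P2A-EGFP takes the place of the stop codon in one copy of SOX2, a transcription factor gene of neural progenitors in general. dTomato, driven by the hSYN1 promoter of a synaptic vesicle gene, was inserted at AAVS1, which lies in PPP1R12C. The progenitor libraries (labelled SOX2::EGFP+) hold EGFP-positive cells and the neuron libraries hold dTomato-positive cells, so each population is what its reporter marks and not one cell type. One stem cell line stands behind all libraries, and the labels do not state whether a group's 2 libraries stem from separate organoids or sorts, so p-values reflect only how far these libraries differ, possibly for technical reasons. The libraries of days 40, 60 and 90, 6 progenitor and 6 neuron libraries of the same line, served as the earlier stages.

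Radial glia are the progenitors of the cerebral cortex. They divide at the ventricle, keep contact with both surfaces of the tissue, and give rise first to neurons, often through intermediate progenitors, and later to astrocytes and oligodendrocytes. Notch signalling between neighbouring cells keeps them from differentiating, and its target HES1 represses proneural genes. Promoters of widely used genes are open in most cell types, whereas distal regulatory elements far from gene starts are open in fewer of them and carry much of what sets one cell type apart.

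The 4 peak lists were of unequal length, and 1 library stood apart. Progenitor library 1 listed 109751 peaks on chromosomes 1 to 22 and X, with a median width of 652 bases and 85.2 Mb covered. Progenitor library 2 listed 67977 peaks, the fewest of all 16 libraries, with a median width of 433 bases and 36.9 Mb covered. Neuron libraries 1 and 2 listed 92022 and 95631 peaks, with 63.0 and 55.7 Mb covered. The files hold no read numbers, so depth is unknown. A region absent from progenitor library 2 may have been open in it and not called, and this shortfall falls on 1 of the 2 populations. Results are therefore given with list length beside them, and with progenitor library 2 left out where that changes them. Fewer cells with an open site and a less open site in every cell cannot be told apart in these bulk libraries.

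Gene starts that were listed in 1 population only show what such a difference looks like in sequence. A start is here the window from 250 bases before to 50 bases after the first base tabled for a gene. That base can lie inside the gene's full span. RefSeq sequences of these windows (build GRCh38.p14) matched 15812 of 19974 protein-coding genes. Both progenitor libraries and no neuron library had a peak over 124 of these starts, which is 0.784% of them, and both neuron libraries and no progenitor library over 186, which is 1.18%. The progenitor-only starts with the highest ranks within both progenitor lists were those of TMPRSS5, DNAH5, RGS8 and C1orf94. The neuron-only starts with the highest ranks were those of WWTR1, SLC39A1, DYNLRB1 and AIMP1, passing over a gene known by a LOC number. These names hold for day 120 alone. All 6 earlier progenitor and all 6 earlier neuron libraries listed the starts of DYNLRB1 and AIMP1. The SLC39A1 start was listed in 3 earlier progenitor and 5 earlier neuron libraries. The sequences of the leading pair of each population follow, 5′ to 3′ on the gene's strand. Capitals mark letters that match, on either strand, SOX motifs (ACAATG or ACAAAG), E-boxes bound by proneural factors (CAGATG or CAGCTG), the NFI motif (TTGGCA) or the AP-1 motif (TGAGTCA). TMPRSS5 (a serine protease of the nervous system) lies at chr11:113706259-113706558 on the minus strand and DNAH5 (a dynein heavy chain of motile cilia) at chr5:13944639-13944938 on the minus strand. WWTR1 (the Hippo pathway co-activator TAZ) lies at chr3:149703224-149703523 on the minus strand and SLC39A1 (a zinc transporter) at chr1:153968135-153968434 on the minus strand.
TMPRSS5: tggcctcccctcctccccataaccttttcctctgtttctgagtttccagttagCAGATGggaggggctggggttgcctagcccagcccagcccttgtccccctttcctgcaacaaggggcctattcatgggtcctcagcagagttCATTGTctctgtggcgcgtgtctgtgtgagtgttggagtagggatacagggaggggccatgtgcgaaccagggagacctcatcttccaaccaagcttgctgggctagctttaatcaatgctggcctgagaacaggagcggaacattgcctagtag
DNAH5: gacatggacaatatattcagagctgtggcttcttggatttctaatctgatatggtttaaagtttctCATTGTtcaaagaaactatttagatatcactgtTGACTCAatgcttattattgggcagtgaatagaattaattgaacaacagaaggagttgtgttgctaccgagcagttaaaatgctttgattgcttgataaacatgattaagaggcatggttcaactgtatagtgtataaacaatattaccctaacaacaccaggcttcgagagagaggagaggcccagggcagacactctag
WWTR1: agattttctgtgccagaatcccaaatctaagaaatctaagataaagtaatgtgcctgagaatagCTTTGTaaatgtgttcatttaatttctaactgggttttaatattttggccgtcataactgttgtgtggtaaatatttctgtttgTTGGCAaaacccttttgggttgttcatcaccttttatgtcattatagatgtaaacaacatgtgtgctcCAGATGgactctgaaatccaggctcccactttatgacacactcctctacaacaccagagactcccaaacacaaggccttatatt
SLC39A1: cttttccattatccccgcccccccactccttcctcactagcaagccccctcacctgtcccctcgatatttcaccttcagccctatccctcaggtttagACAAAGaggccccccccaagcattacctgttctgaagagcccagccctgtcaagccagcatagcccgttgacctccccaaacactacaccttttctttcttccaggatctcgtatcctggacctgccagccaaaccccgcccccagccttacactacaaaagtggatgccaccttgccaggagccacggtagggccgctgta

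The TMPRSS5 start had a SOX match 105 bases before its tabled first base and an E-box match 197 bases before it. The DNAH5 start had a SOX match 184 bases and an AP-1 match 151 bases before its tabled first base. The WWTR1 start held SOX, NFI and E-box matches and the SLC39A1 start a SOX match alone. Over all progenitor-only starts, 26.6% of 124 held a SOX match, against 17.7% of 186 neuron-only starts and 19.3% of all 15812. The NFI motif was in 19.4%, 9.68% and 10.8% of the same groups, and an E-box in 34.7%, 28.5% and 27.0%. The AP-1 motif was in 8.06%, 3.76% and 3.67%, and the TEAD motif (GGAATG) in 12.1%, 16.7% and 11.7%. Starts with no peak in any of the 4 libraries held SOX matches in 28.1% of 4995 cases, more often than the progenitor-only starts, and those listed in all 4 libraries in 14.9% of 8704. An E-box was in 34.0% of the starts with no peak, about as often as in progenitor-only starts. The NFI, AP-1 and TEAD motifs were in 14.2%, 6.21% and 15.1% of the starts with no peak. The median GC content of the windows was 60.8% in progenitor-only starts, 63.7% in neuron-only starts and 53.0% in starts with no peak. These shares describe letters in the windows and were not tested.

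WWTR1 gave opposite pictures at its tabled start and over its locus. The gene spans chr3:149517235-149724788 on the minus strand, so the tabled start lies inside it and is not its outermost start. The tabled start had peaks in neuron libraries 1 and 2, with the authors' −log10 q at 47.5 and 51.3, and no peak in either progenitor library. Of the 12 earlier libraries, 2 progenitor and 2 neuron libraries listed it. The whole locus had more covered bases in progenitors, as described below with its pathway. The TMPRSS5 locus (the gene and 20 kb on either side, scaled and tested as described below) had 3.17 and 1.30 kb covered in progenitors and 0 and 0.576 kb in neurons, a log2 difference of 1.89 (limma adjusted p = 0.00906) that was lost without progenitor library 2 (0.0594) or neuron library 1 (0.206). TMPRSS5 was chosen by its start in the same 4 libraries, so the p-values of its locus are no separate support. In all, 6 of 6 earlier progenitor libraries and 4 of 6 earlier neuron libraries listed the TMPRSS5 start.

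Merging the 4 lists gave 166022 regions, of which a minority were in both libraries of 1 population and neither of the other. All 4 libraries listed 35711 regions, 21.5% of the total. Both neuron libraries and no progenitor library listed 22080 regions (13.3%), called neuron-only here. Both progenitor libraries and no neuron library listed 15272 regions (9.2%), called progenitor-only here. A further 30843 regions were in progenitor library 1 alone, the longest list, and 8626 in progenitor library 2 alone, the shortest. A neuron library alone listed 10395 regions (library 1) and 14483 (library 2). Progenitor library 1 and both neuron libraries shared 14932 regions that progenitor library 2 did not list, whereas only 453 regions were in progenitor library 2 and both neuron libraries without progenitor library 1. Read against list length, progenitor-only regions made up 13.9% of the regions of progenitor library 1 and 22.99% of those of progenitor library 2, and neuron-only regions 24.2% and 23.7% of those of neuron libraries 1 and 2.

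**Figure D1:**
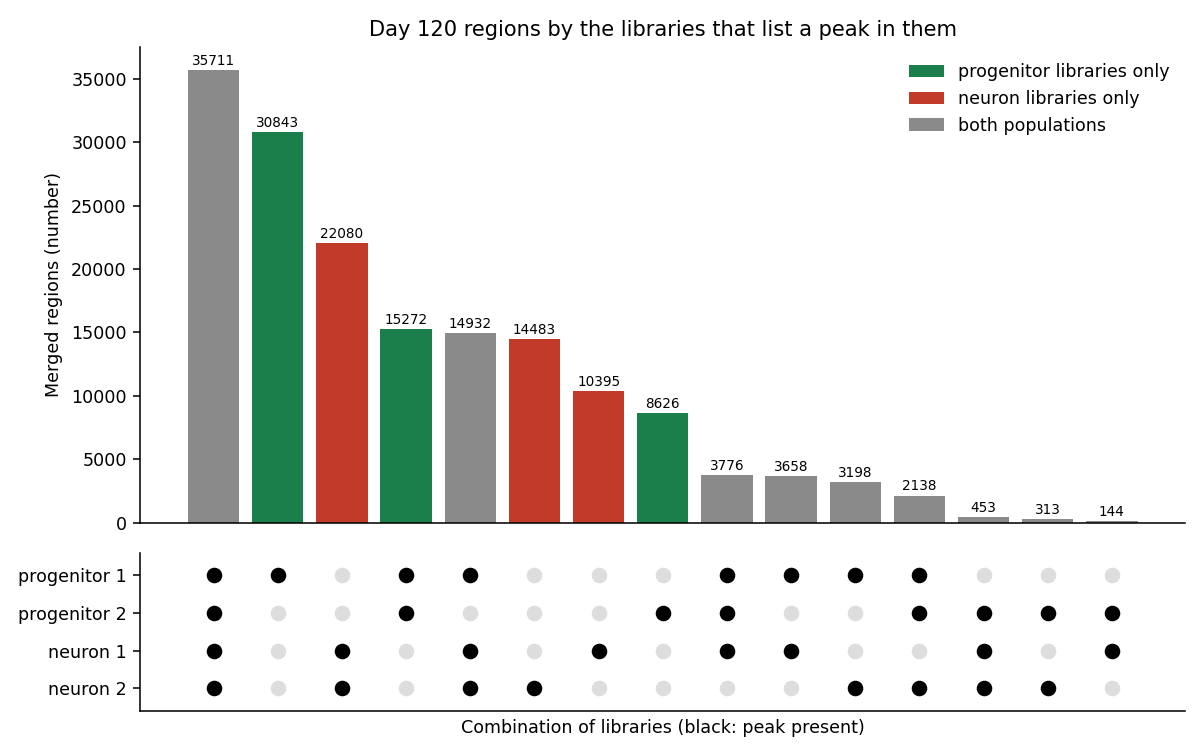
Number of merged day 120 regions (vertical axis) for each combination of the 4 libraries, with black dots below each bar for the libraries that list a peak. The 35711 regions shared by all 4 libraries form the tallest bar, and the 30843 regions of progenitor library 1 alone outnumber the 22080 neuron-only and the 15272 progenitor-only regions.

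With 2 libraries against 2 an exact two-sided permutation test cannot go below p = 0.3333, so the region counts carry none. When each list was cut to the 67977 peaks with the highest −log10 q, 17169 progenitor-only and 20375 neuron-only regions were found, so the neuron-only set stayed the larger by a smaller margin. Without progenitor library 2 the progenitor-only count was 46136 and exceeded the neuron-only count of 22533, and without progenitor library 1 the counts were 25048 and 37533.

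Regions of 1 population lay farther from gene starts than shared regions did. Distances are to the nearest of the 15812 starts of the RefSeq table and are given for 157520 regions, without chromosome 8. In all, 4162 genes have no tabled start, so a nearer gene can be missed and the distances are upper limits. Only 0.837% of progenitor-only and 1.22% of neuron-only regions were within 1 kb of a start, against 26.0% of the regions in all 4 libraries, 6.96% of every region and 1.94% of those with any other pattern. The median distance was 110 kb for progenitor-only, 115 kb for neuron-only, 38.3 kb for shared and 80.9 kb for every region. Gene bodies held 47.6% of progenitor-only, 49.9% of neuron-only and 65.7% of shared regions. Median widths were 717 bases for progenitor-only and 541 for neuron-only regions, between the 1136 of shared regions and the 415 of other patterns, with 587 over every region. Both classes ranked lower within their lists than shared regions. By −log10 q the median shared region stood at percentiles 65.5 to 79.2 of the 4 lists, the median progenitor-only region at 62.0 and 43.6 of the progenitor lists, and the median neuron-only region at 48.4 and 50.7 of the neuron lists.

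The highest-ranking progenitor-only regions lay far from the tabled starts, and all 6 were listed in each of the 6 earlier progenitor libraries. The first, chr6:23027032-23027698 (hg38), lay outside protein-coding genes, 457466 bases from the nearest tabled start, that of HDGFL1. The authors' −log10 q there was 103 and 33.3 in progenitor libraries 1 and 2. Others lay 141911 bases from the start of TENT5A (chr6:81894592-81895783), 264807 bases from that of the spindle checkpoint gene MAD2L1 (chr4:120331655-120332617) and 355617 bases from that of the growth factor gene PDGFD (chr11:103807536-103808530). The remaining pair lay 1291643 bases from the start of the potassium channel gene KCNJ2 (chr17:71461175-71462298) and 640277 bases from that of INTU, a gene of cilium assembly (chr4:126991780-126992680). Genes without a tabled start may lie nearer to any of the 6, and no target gene was tested. Between 1 and 3 of the 6 earlier neuron libraries listed each of the 6 regions.

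Of the 6 highest-ranking neuron-only regions 3 lay inside genes. The first, chr2:105869305-105869998, lay in NCK2, an adaptor protein of the actin cytoskeleton, 17458 bases from its start, with −log10 q at 128 and 78.5 in neuron libraries 1 and 2. It was listed in 5 of 6 earlier neuron and 3 of 6 earlier progenitor libraries. The other genic regions lay in XYLT1 (chr16:17219911-17220505), a xylosyltransferase that starts proteoglycan sugar chains, and in the ubiquitin ligase gene HERC3 (chr4:88583399-88584374). The regions outside protein-coding genes were chr18:25052146-25052865, chr12:115419749-115420352 and chr19:28444197-28444821, between 591509 and 857341 bases from the nearest tabled start. Genes without a tabled start may lie nearer to these regions too. The regions in XYLT1 and on chromosome 12 were listed in 2 earlier neuron and 2 earlier progenitor libraries each, and so did not follow the populations before day 120.

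Similarity between whole lists did not separate the populations cleanly. The Jaccard index, the shared covered bases divided by all covered bases of a pair (0 for none shared, 1 for identical lists), was 0.587 for the 2 neuron libraries. For the 2 progenitor libraries it was 0.363, within the 0.294 to 0.368 of the 4 progenitor-neuron pairs. With lists of equal length the progenitor pair reached 0.442, above the 0.303 to 0.374 of those pairs, and the neuron pair 0.632. Of the peaks of progenitor library 2 above its median −log10 q, 98.9% were touched by a peak of progenitor library 1, against 76.8% by neuron library 1 and 73.3% by neuron library 2. These are the full lists of 109751, 92022 and 95631 peaks, and a longer list can touch more.

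The regions of 1 population at day 120 followed the same population at earlier days, in libraries that had no part in choosing them. Progenitor-only regions had a peak in 55.2% of cases in the lowest, 71.8% in the median and 86.2% in the highest of the 6 earlier progenitor libraries, and in 9.91%, 20.03% and 37.1% in the 6 earlier neuron libraries. The groups did not overlap. The means were 71.0% ± 11.2 (SD, n = 6) and 22.04% ± 11.0 (SD, n = 6), with an exact two-sided permutation p = 0.00216, the smallest that 6 libraries against 6 can give, and 0.00325 after adjustment over 3 such tests. Neuron-only regions had a peak in 33.8%, 49.1% and 85.1% of cases (lowest, median and highest) in the earlier neuron libraries and in 11.3%, 19.1% and 36.0% in the earlier progenitor libraries. Here the groups overlapped, but not within a day. Neuron libraries stood at 43.0% and 33.8% against 11.3% and 12.8% in progenitors at day 40, at 55.3% and 34.2% against 20.8% and 17.4% at day 60, and at 85.1% and 70.4% against 36.0% and 35.4% at day 90. The means of 53.6% ± 20.8 and 22.3% ± 10.9 (SD, n = 6 each) differed with an exact permutation p = 0.0130 (adjusted 0.0130), in a test that does not use the days. Taken within each library, so that list length touches both percentages, the progenitor-only percentage exceeded the neuron-only percentage by 48.7 ± 4.18 points in earlier progenitor libraries and fell short of it in neuron libraries, at −31.6 ± 25.1 points (SD, n = 6 each; exact permutation p = 0.00216, adjusted 0.00325).

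**Figure D2:**
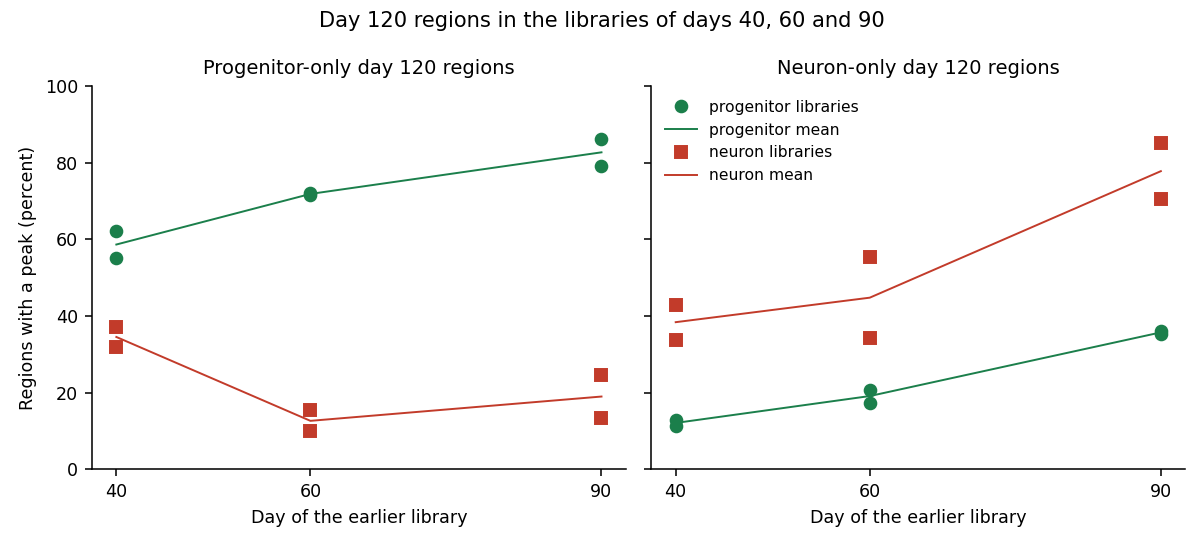
Percent of the 15272 progenitor-only (left) and 22080 neuron-only (right) day 120 regions that have a peak in each library of days 40, 60 and 90; points are libraries and lines join the means of the 2 libraries of a population and day. Progenitor libraries lie above neuron libraries for progenitor-only regions at every day, and neuron-only regions rise from a mean of 38.4% at day 40 to 77.8% at day 90 in neurons and from 12.1% to 35.7% in progenitors.

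The separation was widest at the day nearest to day 120. The difference between the populations in the within-library value was 50.4 points at day 40, 84.8 at day 60 and 106 at day 90, with 2 libraries per population and day and no test of the days. At day 40 the neuron libraries listed both kinds of region about equally, with within-library values of −5.88 and −1.83 points. A small core was private throughout: 1971 progenitor-only regions (12.9%) were in all 6 earlier progenitor and no earlier neuron library, and 569 neuron-only regions (2.58%) in all 6 earlier neuron and no earlier progenitor library. At the other end, 974 progenitor-only regions (6.38%) and 1805 neuron-only regions (8.17%) were in no earlier library, and 54.9% and 47.2% had been listed at least once in the other population. The list of a library also sets how many regions of any kind it can hold: the regions shared by all 4 day 120 libraries were found in 84.5% to 99.4% of cases in earlier progenitor and in 81.5% to 97.9% in earlier neuron libraries.

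Coverage was then summed over genes. The locus of a gene is its body and 20 kb on either side, and its scaled coverage is log2 of the covered bases plus 500, minus log2 of the megabases covered in the whole library, so that differences between populations are on the log2 scale with that pseudocount. limma was fitted to 18755 loci over all 16 libraries, with Benjamini-Hochberg adjusted p below 0.05 as the threshold, and errors of log2 differences are its standard errors. Where a day 120 library was left out, its group held 1 library. The p-values of those fits rest on the spread of the other groups and not on replicates of that group. At day 120, 539 loci (2.87%) had higher coverage in progenitors and 750 (4.0%) in neurons. The median difference over all loci was −0.06. Called loci belonged to long genes, with median lengths of 78.6 kb (progenitors) and 53.0 kb (neurons) against 26.6 kb over all loci. Of the progenitor calls 307, and of the neuron calls 282, were also called in the same direction over days 40 to 90, a direction called at 7.88% and 7.77% of all loci. Both sets of calls come from 1 fit with 1 estimate of spread per locus, so they are not independent. Without scaling to list length only 49 and 77 loci passed. Leaving out progenitor library 2 gave 319 and 1189 calls and moved the median difference of all loci by −0.23, and leaving out progenitor library 1 gave 902 and 773 and moved it by 0.24. Without neuron library 1 the counts were 177 and 231, and without neuron library 2 they were 200 and 203.

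The loci with the largest excess are given in each direction among called loci with at least 5000 covered bases in both libraries of the higher population; some called loci with less coverage, such as SPARCL1 (2.46), differed by more. The first in progenitors was UBE2E2, a ubiquitin-conjugating enzyme (chr3:23203098-23591925), which had 14.8 and 7.17 kb covered in progenitor libraries 1 and 2 and 2.73 and 2.51 kb in neuron libraries 1 and 2. The shortest list thus still covered more of this locus than either neuron list, and the scaled difference was 1.88 ± 0.21 (adjusted p = 1.7e-05). Of its regions 6 were progenitor-only and none neuron-only, where 29.8% of all loci held at least 1 progenitor-only and 40.2% at least 1 neuron-only region. The gene is 389 kb long against a median of 26.6 kb over all loci, and it was chosen by coverage in the same libraries. FAM13C (chr10:59246129-59363181) had 13.3 and 8.11 kb in progenitors and 3.46 and 3.13 kb in neurons, a difference of 1.60 ± 0.19 (adjusted p = 3.4e-05). MAML2, a mastermind co-activator that Notch recruits to its targets (chr11:95976598-96343195), had 34.1 and 16.7 kb in progenitors and 11.4 and 8.89 kb in neurons, a difference of 1.28 ± 0.17 (adjusted p = 5.6e-05). It held 10 progenitor-only and no neuron-only regions. TNS1, the focal adhesion protein tensin 1, had 17.4 and 6.84 kb against 4.87 and 3.96 kb (1.31 ± 0.17, adjusted p = 5.1e-05). ESR1, the oestrogen receptor alpha, had 8.53 and 5.10 kb against 1.66 and 3.29 kb (1.40 ± 0.32, adjusted p = 0.00846).

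The other loci of this group were ARHGAP42 (a GTPase-activating protein, difference 1.53), WDR72 (1.47), ABHD2 (a lipid hydrolase, 1.43), VPS13D (a lipid transfer protein, 1.38), PRCP (a peptidase, 1.34), SNX18 (a sorting nexin, 1.28) and ANGPT1 (the ligand angiopoietin 1, 1.25). All 12 loci held between 3 and 10 progenitor-only regions and from 0 to 3 neuron-only regions. The rule that chose them required both progenitor libraries to lie above both neuron libraries, which was so at 16.6% of all loci tested. Nothing follows from their separation, or from these region counts, which come from the same libraries. Leaving out 1 library ended the calls at ESR1 (adjusted p = 0.0959 without progenitor library 2 and 0.209 without neuron library 1), ARHGAP42 (0.0690 without neuron library 2) and ANGPT1 (0.0528 without neuron library 2).

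**Figure D3:**
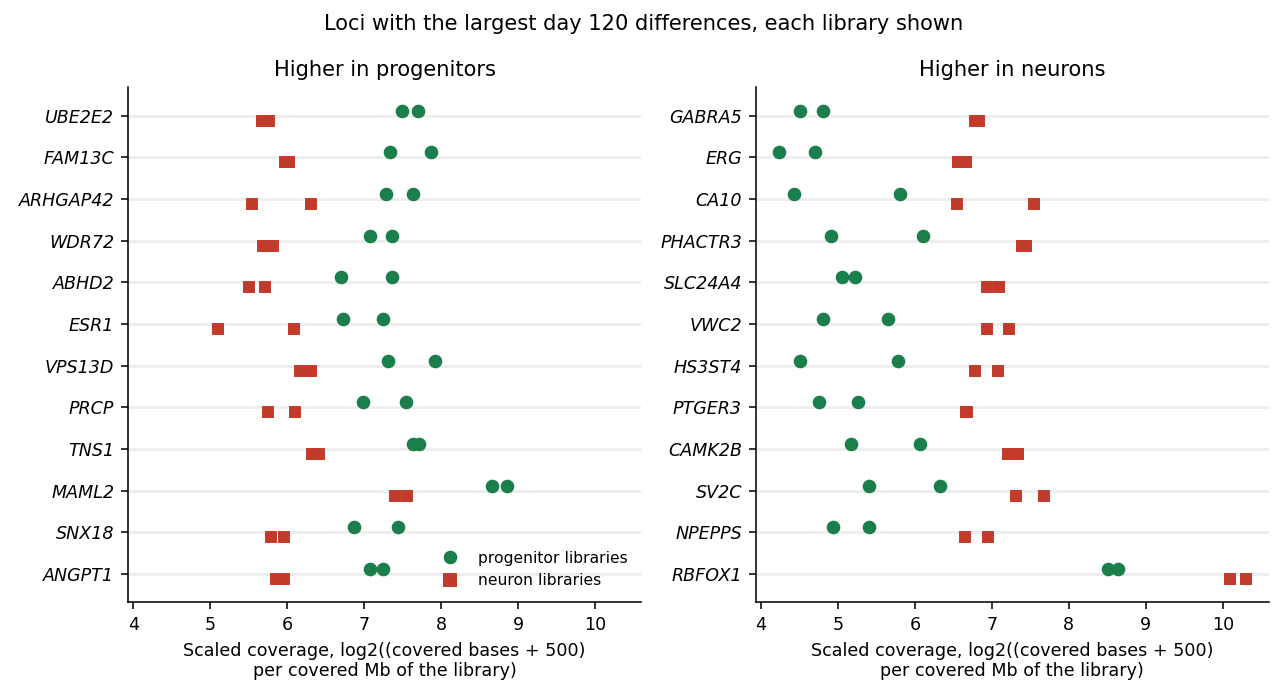
Scaled coverage in each of the 4 day 120 libraries (horizontal axis, log2 of covered bases plus 500 per covered Mb of the library) for the 12 loci with the largest called difference in each direction among those with at least 5000 covered bases in both libraries of the higher population; circles are progenitor and squares neuron libraries. Separate populations were a condition of the choice; the loci are ordered from UBE2E2 (difference 1.88) and GABRA5 (−2.15) downwards, and RBFOX1 has the highest coverage of these loci.

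In neurons the largest excess under the same rule was at GABRA5, a subunit of the GABA-A receptor (chr15:26866719-26949208), which had 6.43 and 5.87 kb covered in neuron libraries 1 and 2 and 1.89 and 0.341 kb in progenitor libraries 1 and 2, a difference of −2.15 ± 0.21 (adjusted p = 3e-06). RBFOX1, a neuronal splicing regulator in one of the longest genes tested (2474 kb, chr16:5239721-7713340), had 78.8 and 60.5 kb in neurons and 33.5 and 13.0 kb in progenitors, a difference of −1.62 ± 0.20 (adjusted p = 3.4e-05). It held 66 neuron-only and 2 progenitor-only regions, and its start was neuron-only. CAMK2B, a subunit of the calcium-dependent kinase of synapses, had 9.74 and 7.78 kb against 5.22 and 0.833 kb (−1.66 ± 0.24, adjusted p = 0.000151). SV2C, a synaptic vesicle protein, had 9.48 and 10.9 kb against 6.33 and 1.06 kb (−1.63 ± 0.22, adjusted p = 0.000103). ERG, an ETS transcription factor best known from endothelium and blood, had 5.46 and 5.15 kb against 1.72 and 0.194 kb (−2.14 ± 0.31, adjusted p = 0.000173), with 6 neuron-only and no progenitor-only regions.

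The others were CA10 (a carbonic anhydrase-related protein that binds neurexins, −1.93), PHACTR3 (a regulator of protein phosphatase and actin, −1.91), SLC24A4 (a sodium-calcium exchanger, −1.88), VWC2 (a secreted BMP antagonist, −1.85), HS3ST4 (a heparan sulfate sulfotransferase, −1.78), PTGER3 (a prostaglandin E receptor, −1.66) and NPEPPS (an aminopeptidase, −1.63). All 12 loci held at least 4 neuron-only regions, and 11 of them no progenitor-only region. The rule again required both neuron libraries to lie above both progenitor libraries, which was so at 22.9% of all loci. Nothing follows from their separation, or from these region counts, which come from the same libraries. The PHACTR3 call was lost without progenitor library 1 (adjusted p = 0.112).

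The loci that carry the reporters did not pass the test. SOX2 had 13.9 and 7.10 kb covered in progenitors and 6.07 and 6.82 kb in neurons, so that the scaled values did not overlap and the difference was 0.67 ± 0.26 (adjusted p = 0.128). Its start was listed in all 4 libraries. At the earlier days the SOX2 difference was 1.27 ± 0.15 (adjusted p = 3e-06). SYN1, whose promoter drives dTomato, had 3.22 and 2.52 kb against 2.51 and 2.53 kb (0.23 ± 0.28, adjusted p = 0.739), and PPP1R12C had 2.68 and 0.755 kb against 2.96 and 2.42 kb (−0.59 ± 0.30, adjusted p = 0.265). Of 6 defining progenitor genes, HES1 passed towards progenitors (1.08 ± 0.21, adjusted p = 0.00233). SOX2, VIM (0.71), SLC1A3 (0.36), PAX6 (0.09) and FABP7 (−0.10) did not pass. Of 6 defining neuronal genes, RBFOX3, the NeuN antigen, passed towards neurons. MYT1L (−0.45), MAP2 (0.47), STMN2 (0.13) and SYT1 (0.12) did not pass. DCX, the microtubule protein doublecortin of young neurons, passed in the direction opposite to its label. The DCX locus had 15.9 and 7.26 kb covered in progenitors and 7.82 and 6.18 kb in neurons (0.68 ± 0.17, adjusted p = 0.0178), and its start was listed in all 4 libraries. That call was lost without neuron library 1 (adjusted p = 0.0736) or neuron library 2 (0.158). The DCX call was also lost without scaling, and in covered bases the libraries of the populations overlapped at this locus. These 12 loci therefore matched the labels only in part, and the names progenitor and neuron refer to the sort.

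**Figure D4:**
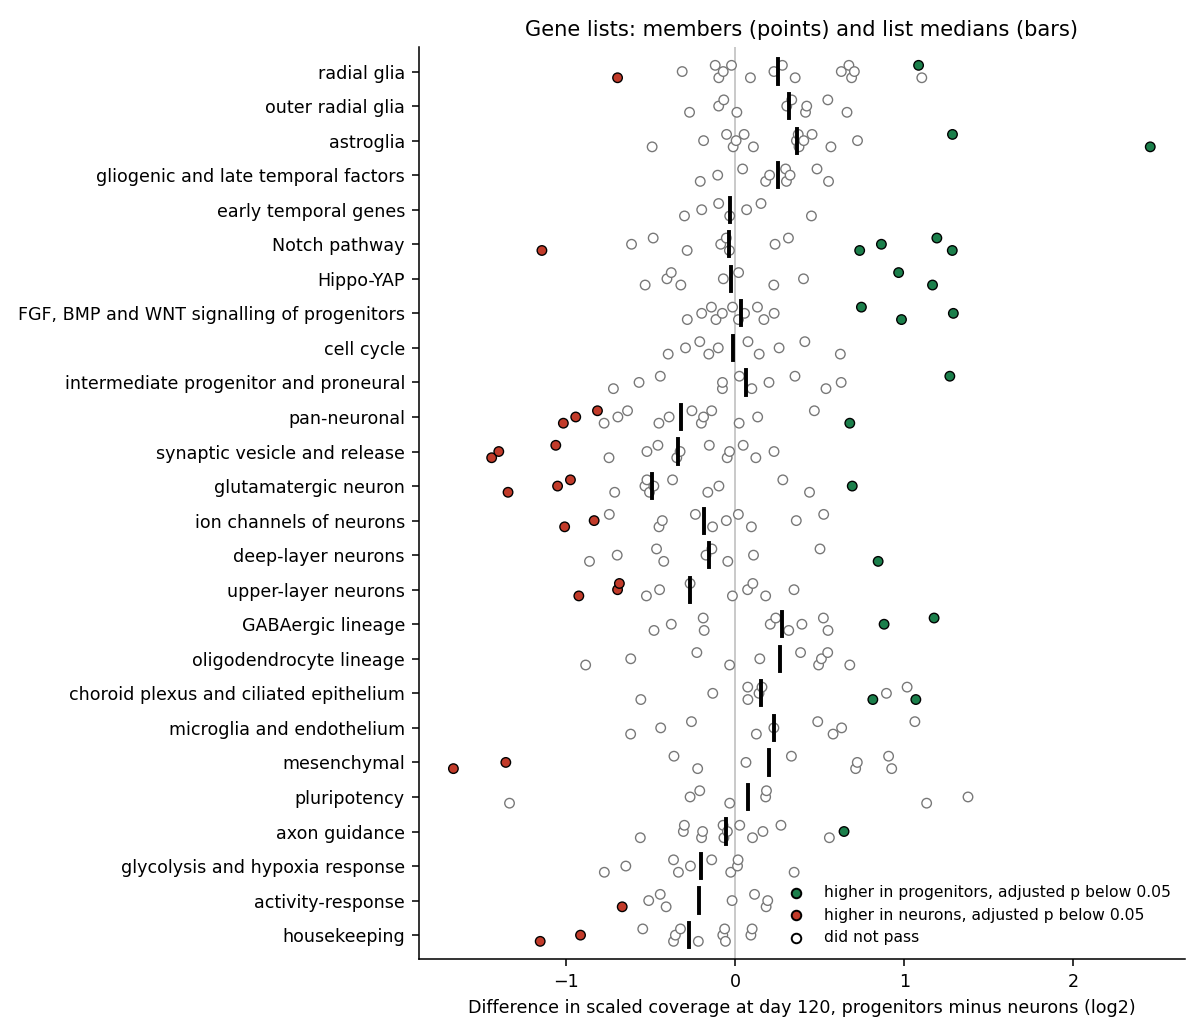
Difference in scaled coverage at day 120 (horizontal axis, progenitors minus neurons, log2) for every member of 26 gene lists; filled points passed the test, open points did not, and bars are list medians. Medians run from −0.49 in the glutamatergic list to 0.37 in the astroglial list, most members lie on either side of 0 without passing, and SPARCL1 (2.46) is the farthest point.

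Few genes of radial glia and astrocytes passed, where 2.87% of all loci passed towards progenitors and 4.0% towards neurons. In the radial glia list the median difference was 0.25, against −0.06 over all loci, and 1 of 16 members passed towards progenitors and 1 towards neurons. HES1 had 5.79 and 2.95 kb in progenitors and 1.80 and 1.84 kb in neurons. LHX2, a transcription factor of cortical progenitors and upper-layer neurons, was the member that passed towards neurons (−0.70 ± 0.21, adjusted p = 0.0412), with 6.55 and 3.06 kb against 10.4 and 6.23 kb. FGFR3, a growth factor receptor of ventricular progenitors, stood at 1.10 without passing. The outer radial glia list had a median of 0.32 and no member that passed in the limma fit. At unadjusted p below 0.05, 2 of its 10 members pointed to progenitors and none to neurons. HOPX, its usual marker, stood at 0.42 and PTN at 0.66.

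In the astroglia list, with a median of 0.37, 2 of 16 members passed, both towards progenitors, where 2.87% of all loci did. SPARCL1, a secreted synapse-promoting protein of astrocytes (chr4:87473335-87529376), had 5.20 and 2.60 kb in progenitors and 0.814 and 0 kb in neurons, a difference of 2.46 ± 0.50 (adjusted p = 0.00360). GJA1, the gap junction protein connexin 43, had 4.50 and 2.26 kb against 1.52 and 0.784 kb (1.29 ± 0.28, adjusted p = 0.00629). GFAP (0.36) and AQP4 (0.57) did not pass. Among gliogenic and late temporal factors none of 10 members passed in the limma fit. At unadjusted p below 0.05, 2 pointed to progenitors and none to neurons, and the median was 0.25, with ZBTB20 at 0.55 ± 0.17 (adjusted p = 0.0547). The early temporal genes, such as LIN28A, had a median of −0.03 and no member past an unadjusted p of 0.05. Without neuron library 2 the calls at SPARCL1 (adjusted p = 0.0968) and GJA1 (0.114) were lost. The LHX2 call was lost without progenitor library 1 (0.144), progenitor library 2 (0.0523) or neuron library 1 (0.443). The HES1 call passed without each library in turn, narrowly without neuron library 1 (0.0487), and was lost in 4 of 9 other settings, among them the fit of the 4 day 120 libraries alone (0.0650).

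Members of the Notch list passed in both directions. Of 13 members, 4 passed towards progenitors and 1 towards neurons, against 2.87% and 4.0% of all loci, and the median was −0.03. Among receptors, NOTCH2 had 7.62 and 3.31 kb in progenitors and 3.14 and 2.36 kb in neurons (0.87 ± 0.22, adjusted p = 0.0180), while NOTCH1 (0.32) and NOTCH3 (−0.61) did not pass. Of the Jagged ligands, JAG1 had 9.10 and 4.18 kb against 4.47 and 3.14 kb (0.74 ± 0.19, adjusted p = 0.0214). JAG2 was the member that passed towards neurons, with 0.663 and 0.426 kb against 2.63 and 1.37 kb (−1.14 ± 0.33, adjusted p = 0.0365), and is named here after its values were seen. LFNG, a glycosyltransferase that tunes which ligand Notch answers to, had 6.04 and 3.86 kb against 2.63 and 1.45 kb (1.19 ± 0.25, adjusted p = 0.00501). MAML2, described above, was the fourth member higher in progenitors. The members with a called excess in progenitors held 3 progenitor-only regions at JAG1, 3 at NOTCH2, 10 at MAML2 and 0 at LFNG, whose locus held 2 regions listed in all 4 libraries. Without scaling the MAML2 call was lost, but it held without each library in turn. The others did not: NOTCH2 was lost without neuron library 1 (adjusted p = 0.0742) or neuron library 2 (0.155), JAG1 without progenitor library 2 (0.0644), neuron library 1 (0.0559) or neuron library 2 (0.227), LFNG without progenitor library 2 (0.0679) or neuron library 2 (0.108), and JAG2 without progenitor library 1 (0.188), neuron library 1 (0.327) or neuron library 2 (0.0654).

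Both co-activators of the Hippo pathway were higher in progenitors, a direction called at 2.87% of all loci. WWTR1 had 17.4 and 11.1 kb in progenitors and 8.41 and 6.29 kb in neurons (0.97 ± 0.19, adjusted p = 0.00305). Its locus held 5 progenitor-only and 5 neuron-only regions, 1 of the latter over its tabled start inside the gene. YAP1 had 8.59 and 2.29 kb against 1.24 and 2.72 kb (1.17 ± 0.28, adjusted p = 0.0126). In covered bases the YAP1 libraries overlapped, and they were separate only after scaling. The same was so at other named loci, among them GPC4, JAG1, DCX and GRIN2B. The other 8 of 10 members, with the TEAD factors that bind DNA for both, did not pass, and the list median was −0.02. Among genes of FGF, BMP and WNT signalling 3 of 14 passed, all towards progenitors, where 2.87% of all loci did. The list median was 0.04. They were the BMP receptor BMPR1B (0.98 ± 0.17, adjusted p = 0.000754; 21.5 and 8.58 kb against 7.54 and 6.58 kb), the R-spondin receptor LGR4 (1.29 ± 0.23, adjusted p = 0.00135; 9.42 and 4.80 kb against 2.25 and 3.07 kb) and the glypican GPC4 (0.75 ± 0.21, adjusted p = 0.0313). In the cell cycle list none of 10 members passed in the limma fit, 1 pointed to progenitors and none to neurons at unadjusted p below 0.05, and CDK6, a kinase of the G1 phase, stood at 0.62 ± 0.19 (adjusted p = 0.0515). The BMPR1B call held without each library in turn, though not without scaling. YAP1 was lost without progenitor library 1 (0.119) or neuron library 1 (0.323), WWTR1 without neuron library 2 (0.0616), LGR4 without neuron library 1 (0.0517), and GPC4 without progenitor library 1 (0.0519), progenitor library 2 (0.138) or neuron library 1 (0.434).

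Of the neuronal lists, 3 members each of the pan-neuronal, synaptic and glutamatergic lists passed towards neurons, where 4.0% of all loci did and 2.87% passed towards progenitors. The pan-neuronal list had a median of −0.32, with 3 of 16 members passing towards neurons and DCX towards progenitors. RBFOX3 had 26.7 and 18.6 kb in neurons and 17.6 and 5.80 kb in progenitors (−1.02 ± 0.18, adjusted p = 0.000939), with 9 neuron-only regions and 1 progenitor-only region. SNCB, beta-synuclein (−0.81 ± 0.20, adjusted p = 0.0149), and NEFL, the light neurofilament (−0.94 ± 0.28, adjusted p = 0.0449), were the others. In the list of synaptic vesicles and release 3 of 14 passed, all towards neurons, with a median of −0.34. SV2B, a vesicle protein, had 13.6 and 10.5 kb against 8.68 and 1.68 kb (−1.40 ± 0.23, adjusted p = 0.000475). UNC13A, which primes vesicles for release, had 2.17 and 2.97 kb against 0.638 and 0.490 kb (−1.44 ± 0.33, adjusted p = 0.00925), and its start was neuron-only. SYN2, a synapsin, stood at −1.06 ± 0.27 (adjusted p = 0.0168).

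The glutamatergic list had the lowest median of the lists, −0.49, with 3 of 14 passing towards neurons and 1 towards progenitors. Over all loci 4.0% and 2.87% passed in these directions. HOMER1, a scaffold of the postsynaptic density, had 7.80 and 4.89 kb in neurons and 3.14 and 1.21 kb in progenitors (−1.34 ± 0.23, adjusted p = 0.000785), with 7 neuron-only and no progenitor-only regions. The NMDA receptor subunits differed in direction. GRIN2A had 12.7 and 11.9 kb in neurons and 10.9 and 2.82 kb in progenitors (−0.97 ± 0.18, adjusted p = 0.00191). GRIN2B had 9.18 and 7.97 kb in neurons and 21.9 and 8.08 kb in progenitors (0.69 ± 0.18, adjusted p = 0.0189), with 8 progenitor-only regions and 1 neuron-only region. In covered bases the GRIN2B libraries overlapped, and the GRIN2B call was lost without scaling. NEUROD2, a proneural-family factor of cortical excitatory neurons, had 6.87 and 4.16 kb against 3.24 and 1.42 kb (−1.05 ± 0.27, adjusted p = 0.0180), and its start was neuron-only. The list of neuronal ion channels had a median of −0.18, and 2 of 12 members passed, both towards neurons. Housekeeping genes had a negative median too, −0.27, with 2 of 12 passing towards neurons (ACTB at −1.15 and HPRT1 at −0.91), and their part in the neuronal values was not tested.

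The calls at RBFOX3, SV2B, HOMER1 and GRIN2A held without each library in turn, though not without scaling or, at HOMER1, among peaks with −log10 q of at least 3. Without neuron library 1 the calls at SNCB (adjusted p = 0.0820), NEFL (0.119), SYN2 (0.222), NEUROD2 (0.224), GRIN2B (0.107), ACTB (0.119) and HPRT1 (0.118) were lost. Without neuron library 2 those at SNCB (0.122), NEFL (0.297), UNC13A (0.156), GRIN2B (0.113) and HPRT1 (0.349) were lost. Without progenitor library 1 those at UNC13A (0.0860), NEUROD2 (0.0968), GRIN2B (0.0850) and HPRT1 (0.0578) were lost. Without progenitor library 2 those at NEFL (0.207), SYN2 (0.193), ACTB (0.0766) and HPRT1 (0.0603) were lost.

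Among upper-layer genes 3 of 11 passed, all towards neurons, where 4.0% of all loci did and 2.87% passed towards progenitors. The list median was −0.27. BHLHE22, a transcription factor of cortical neurons, had 5.06 and 5.91 kb in neurons and 3.62 and 1.65 kb in progenitors (−0.92 ± 0.21, adjusted p = 0.00807). LHX2, described above with radial glia, was another. The deep-layer list also had a negative median, −0.16, with 2 of 10 members towards progenitors and 3 towards neurons at unadjusted p below 0.05. The 1 member past the threshold passed towards progenitors: LMO3, with 10.4 and 3.82 kb in progenitors and 3.42 and 3.64 kb in neurons (0.85 ± 0.22, adjusted p = 0.0189). The GABAergic list had a median of 0.28, and 2 of 12 members passed towards progenitors. DLX1, a homeobox gene of interneuron precursors, had 10.1 and 7.01 kb in progenitors and 3.97 and 3.38 kb in neurons (1.18 ± 0.21, adjusted p = 0.00142), with 3 progenitor-only and no neuron-only regions. DLX2, its neighbour, stood at 0.88 ± 0.22 (adjusted p = 0.0144), and the windows of the pair overlap, so they share regions. GAD2, which makes GABA, stood at 0.55 without passing. Among intermediate progenitor and proneural genes 1 of 12 passed, NEUROD4 towards progenitors (1.27 ± 0.28, adjusted p = 0.00675; 3.86 and 1.56 kb against 1.04 and 0.621 kb), and the median was 0.06. The DLX1 call held without each library in turn, though not without scaling. DLX2 was lost without progenitor library 2 (0.116), neuron library 1 (0.0772) or neuron library 2 (0.114), BHLHE22 and NEUROD4 without neuron library 2 (0.155 and 0.0917), and LMO3 without progenitor library 1 (0.0586), neuron library 1 (0.186) or neuron library 2 (0.0598).

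Markers of other cells that the sorts could hold were summed as shares of the covered bases, which depend on list size and gene length. Against 2.87% of all loci called towards progenitors and 4.0% towards neurons, 4 members of these lists passed, as follows. Oligodendrocyte genes took between 0.0434% and 0.0511% of the covered bases in all 4 libraries, with none of 10 members past the threshold of the limma fit and 2 in each direction at unadjusted p below 0.05. Choroid plexus and ciliated epithelium genes took 0.0418% and 0.0405% in progenitors and 0.0264% and 0.0344% in neurons. Of these 10 genes 2 passed towards progenitors, TTR (transthyretin, 1.07 ± 0.26, adjusted p = 0.0123; 4.47 and 1.92 kb against 1.40 and 1.10 kb) and RFX4 (0.81 ± 0.22, adjusted p = 0.0263), and KCNJ13 was at 0 in 3 libraries. TTR and RFX4 had been higher in progenitors over days 40 to 90 too (0.81 and 1.18). Whether either call stems from such cells or from the progenitors at large was not tested. Microglial and endothelial genes took 0.0190% to 0.0231%, with none of 9 tested members passing and 1, CSF1R, at unadjusted p below 0.05. Mesenchymal genes took 0.0262% to 0.0358%, with 2 of 10 passing towards neurons. Of these DCN had 3.24 and 2.42 kb in neurons and 1.50 and 0.246 kb in progenitors (−1.36 ± 0.31, adjusted p = 0.00915). COL3A1 had 1.13 and 1.23 kb in neurons and 0 in both progenitor libraries, where the scaled values of 2.55 and 3.76 differ by list length alone. Pluripotency genes took 0.0171% to 0.0201%, and none of 8 passed in the limma fit, with 1 in each direction at unadjusted p below 0.05. TTR was lost without neuron library 1 (0.0772) or neuron library 2 (0.0972), RFX4 without progenitor library 1 (0.0635), progenitor library 2 (0.109) or neuron library 1 (0.449), DCN without neuron library 1 (0.105) or neuron library 2 (0.0577), and COL3A1 without progenitor library 1 (0.192), neuron library 1 (0.157) or neuron library 2 (0.255).

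Whether a difference at day 120 departed from that of earlier days was asked with a contrast of its own, the day 120 difference minus the mean difference of days 40, 60 and 90. It passed at 0.464% of loci, 29 towards progenitors (0.155%) and 58 towards neurons (0.309%). Towards progenitors the largest values were at UBE2E2 (1.51 ± 0.24, adjusted p = 0.00417), TRAM2 (an endoplasmic reticulum protein of collagen synthesis, 1.09 ± 0.23), DCX (1.06 ± 0.20, adjusted p = 0.0155), CNTN4 (a neuronal adhesion molecule, 0.94 ± 0.19), SEMA3A (a secreted axon guidance cue, 0.93 ± 0.21) and EGFR (the receptor of epidermal growth factor, 0.92 ± 0.20). DCX changed sides: its difference was −0.84 at day 40, −0.20 at day 60, −0.12 at day 90 and 0.68 at day 120. EGFR, which marks late multipotent progenitors, went from −0.61 at day 40 through 0.18 and 0.52 to 0.95 at day 120, where it had 22.1 and 11.8 kb in progenitors and 9.21 and 8.11 kb in neurons.

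Towards neurons the largest values were at ERG (−2.17 ± 0.36, adjusted p = 0.00593), TSHZ2 (a zinc finger transcription factor, −1.96 ± 0.25, adjusted p = 0.000677), GABRA5 (−1.76 ± 0.24, adjusted p = 0.000732), ATRNL1 (attractin-like 1, −1.67 ± 0.32), SV2C (−1.63 ± 0.26, adjusted p = 0.00384) and CCBE1 (a secreted protein of lymphatic growth, −1.42 ± 0.31). At ERG and SV2C the populations had not differed earlier on average (0.02 and 0.00). TSHZ2 had been higher in progenitors at the earlier days (0.37 ± 0.13, adjusted p = 0.0449) and had 11.1 and 12.5 kb in neurons and 6.13 and 1.77 kb in progenitors at day 120, with 12 neuron-only and 2 progenitor-only regions. These values rest on 2 libraries a population at day 120, and those at UBE2E2, TSHZ2 and GABRA5 alone among the 12 passed without each of the 4 day 120 libraries in turn. Without neuron library 2, for example, adjusted p was 0.156 at DCX, 0.208 at EGFR, 0.279 at TRAM2, 0.0780 at ERG, 0.153 at ATRNL1 and 0.0837 at SV2C. The counts of 29 and 58 became 15 and 12 without neuron library 1, 6 and 4 without neuron library 2, 247 and 281 without progenitor library 1, and 12 and 75 without progenitor library 2.

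**Figure D5:**
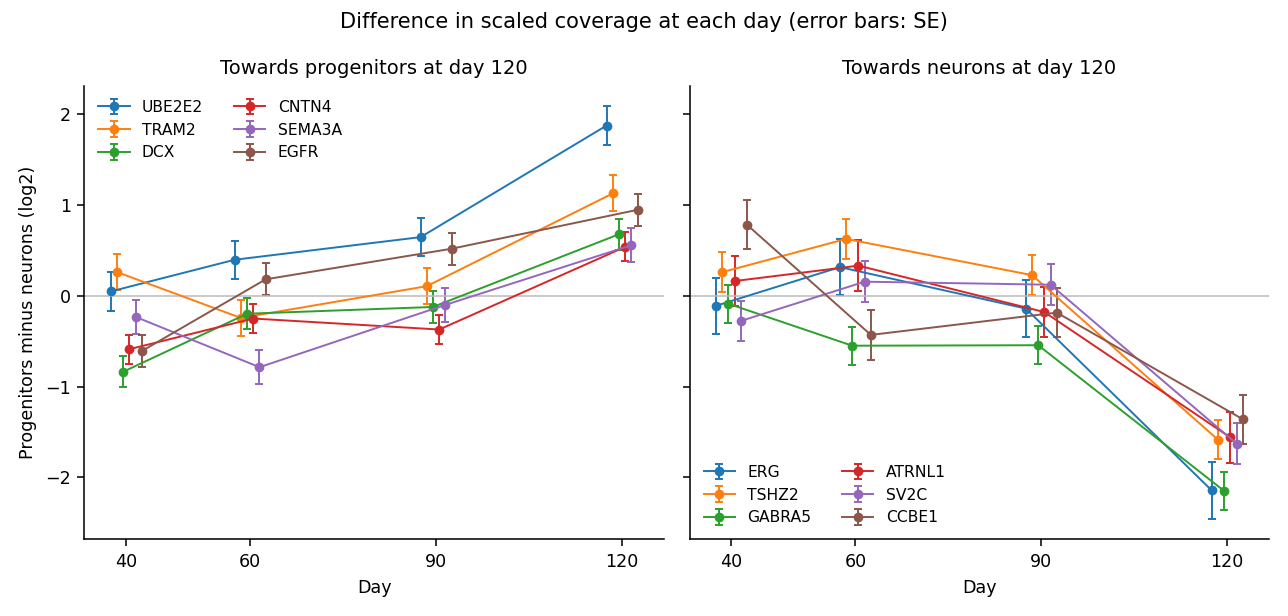
Difference in scaled coverage between progenitors and neurons (vertical axis, log2) at each day for the 6 loci in each direction with the largest departure at day 120; error bars are standard errors from limma, with 2 libraries per population and day. UBE2E2 reaches 1.88 and GABRA5 −2.15 at day 120, and DCX lies below 0 at days 40, 60 and 90 and above it at day 120.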

How the data were processed

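Per the submitters' processing notes, the authors worked on build hg38 with MACS2 2.1.2 for peaks and with SAMtools 1.9, Picard, BWA 0.7.17 and Trim Galore 0.5.0; for settings and filters: not given in the sources used here. Each deposited broad peak list, 1 per library, gives for each peak the authors' score, fold enrichment as a ratio over background, −log10 p and −log10 q. Of these deposited columns only the −log10 q was used, to rank peaks within a list; the score is 10 times it, to within 1. The lists hold no read numbers, and their length limits what can be detected.

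Peaks on chromosomes 1 to 22 and X were kept, which left out 136 to 387 per day 120 library. Overlapping peaks of the 4 lists were merged, and a library had a region if 1 base overlapped. Covered bases were summed over each RefSeq gene with 20 kb flanks. Loci where 2 or more libraries reached 500 covered bases were fitted with limma 3.58.1 (R 4.3.3; mean-variance trend, 8 group means over 16 libraries, Benjamini-Hochberg adjustment), and the code was tested on simulated data. Gene starts exclude chromosome 8. The groups were compared without a replicate block.

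Named loci are the reporters, the 12 with the largest called difference in each direction (both libraries of 1 population above both of the other, and at least 5000 covered bases in both libraries of the higher population), up to 4 called members with the smallest adjusted p of each of 26 lists (299 entries, all matched to RefSeq), and the 6 in each direction with the largest called departure from earlier days. Regions and gene starts are those with the best worse-of-2 rank, 6 and 4 per direction. Some called list members are not reported here. The members and lists were chosen with earlier results of these data known. Alternatives were another pseudocount, flank, filter, overlap or −log10 q minimum, no scaling, equal list lengths, a replicate block, the day 120 libraries alone, each of them left out and, chosen after seeing the data, regions with no peak of the other population within 1 kb.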

Additional observations from a re-analysis of the deposited data

Results flagged for a closer look

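At 16 loci the test of the day 120 difference against the mean difference of days 40, 60 and 90 passed and the text names the gene. Those higher in progenitors relative to the earlier days were UBE2E2 (1.51, adjusted p = 0.00417 by limma), TRAM2 (1.09, 0.0279), DCX (1.06, 0.0155), CNTN4 (0.94, 0.0172), SEMA3A (0.93, 0.0448), EGFR (0.92, 0.0365) and CACNA1E, a calcium channel subunit (0.84, 0.0385). Those higher in neurons were ERG (−2.17, adjusted p = 0.00593 by limma), TSHZ2 (−1.96, 0.000677), GABRA5 (−1.76, 0.000732), ATRNL1 (−1.67, 0.0169), SV2C (−1.63, 0.00384), CCBE1 (−1.42, 0.0370), NPEPPS (−1.38, 0.0286), VWC2 (−1.31, 0.0279) and BHLHE22 (−1.06, 0.0450). All values are differences of log2 differences. SEMA3A and CACNA1E did not pass at day 120 itself, with differences of 0.56 and 0.52. CCBE1 took both signs, at 0.78, −0.43, −0.19 and −1.36 over the 4 days. Leaving out 1 day 120 library ended the calls at 13 of the 16 loci, all but UBE2E2, TSHZ2 and GABRA5: neuron library 2 ended all 13, neuron library 1 ended 10, progenitor library 2 ended 9 and progenitor library 1 ended that at SEMA3A.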

How the results depend on the processing

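The counts of called loci at day 120 (539 higher in progenitors, 750 in neurons) were 196 and 143 with a pseudocount of 2000 bases, 49 and 77 without scaling, 203 and 227 with the 4 day 120 libraries alone, 839 and 1230 with lists of equal length, and 675 and 1129 with a pseudocount of 100 bases. Leaving out 1 library gave 177 to 902 and 203 to 1189. The departures from earlier days (29 and 58) numbered 15 and 14 with 2000 bases, 1 and 1 without scaling, 104 and 176 with equal lengths, 128 towards neurons with 100 bases and 36 with 5 kb flanks, and 6 to 247 and 4 to 281 with 1 library left out. Progenitor-only regions (15272) numbered 9450 at −log10 q of at least 3 and 17421 to 46136 with 1 library left out. Neuron-only regions (22080) numbered 18511 at that minimum, 20375 with equal lengths and 21320 where peaks had to cover 50% of a region. With 1 library left out they numbered 22533 to 37533. Regions of all 4 libraries (35711) numbered 22268 at that minimum, 15815 where a peak counted only if it covered 50% of a region, and 36000 to 50638 with 1 library left out. The excess of Jaccard index of replicates over other pairs (0.153) was 0.205 with equal lengths and 0.0327 to 0.293 with 1 library left out. The difference between populations in the earlier libraries (80.3 points) stayed between 56.0 and 84.0 with an exact permutation p = 0.00216. With no peak of the other population within 1 kb, 14508 progenitor-only and 20626 neuron-only regions remained. Causes of these shifts were not tested, apart from fewer libraries or peaks by construction.

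The replicate number as a block gave 737 and 1012 loci at day 120 and 119 and 212 departures from earlier days. Deviations of same-numbered libraries correlated across 18755 loci at 0.157 at day 120, and at −0.123, 0.214 and 0.0643 at days 40, 60 and 90. These correlations were weak and cannot show whether same-numbered libraries were prepared together, which the labels do not state. Of 69 named called loci, none changed direction in any alternative, 31 kept their call without each library in turn, and 8 in every alternative; 60 lost it without scaling. Among uncalled genes FABP7 changed sign with 5 kb flanks (0.012), and leaving out 1 library gave values on both sides of 0 at SYT1 (−0.050 to 0.29), PAX6 (−0.099 to 0.28), STMN2 (−0.19 to 0.46), SYN1 (−0.22 to 0.68), HOPX (−0.0077 to 0.85) and GFAP (−0.13 to 0.85).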

Other observations

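Long genes held many regions of both kinds. NRXN3, a presynaptic adhesion molecule, held 27 progenitor-only and 26 neuron-only regions, with 53.9 and 24.9 kb covered in progenitors and 34.2 and 28.6 kb in neurons (difference 0.31, limma adjusted p = 0.242). AUTS2, a regulator of transcription and of neurite growth, held 14 and 37, and its difference of −0.42 did not pass (adjusted p = 0.119). RAD51B, a DNA repair gene, held 20 and 5, with 42.0 and 20.8 kb against 15.1 and 11.3 kb (1.23 ± 0.16, adjusted p = 5.3e-05). Its call held without each library in turn, though not without scaling. These genes were chosen after their values were seen.

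Further lists had few calls, where 2.87% of all loci passed towards progenitors and 4.0% towards neurons. In the axon guidance list 1 of 14 members passed, the Eph receptor EPHA4 towards progenitors (0.64, adjusted p = 0.0445, lost without progenitor library 2, neuron library 1 or neuron library 2), with a median of −0.06. In the activity-response list 1 of 8 passed, the neurotrophin BDNF towards neurons (−0.67, adjusted p = 0.0468, lost without the same libraries), with a median of −0.21. In the glycolysis and hypoxia list none of 10 passed in the limma fit, none pointed to progenitors and 2 to neurons at unadjusted p below 0.05, and the median was −0.20. By chromosome, progenitor-only regions made up 2.83% of the 3325 regions of chromosome 19 and 10.5% of the 6369 of chromosome X, and neuron-only regions 10.8% and 12.6%.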
